A study of Mus musculus with 12 samples.

Results

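The genes described here were 10 genes of the Notch pathway, taken by name from the 38127 genes counted in each of 12 RNA-seq libraries of sorted cells labelled as mouse fetal liver (FL). They comprised all 4 Notch receptor genes (*Notch1*, *Notch2*, *Notch3*, and *Notch4*), 3 ligand genes (*Dll4*, *Jag1*, and *Jag2*), 2 target genes (*Hes1* and *Hey1*), and *Mfng*, which encodes the glycosyltransferase Manic fringe. All 10 were found in every library and all 10 passed the filter on low counts. Cells came from C57BL/6 embryos and were sorted as Ter119-CD45-, which leaves out Ter119+ erythroid cells and CD45+ leukocytes. P2 cells were CD54-CD31-Kit+CD24+ at embryonic day (E) 14.5, the population that the study describes as erythroid progenitors. CD31+ cells (CD54+CD31+, E14.5) carried the endothelial surface marker CD31, and CD54+CD31- cells were sorted at E14.5 and at E18.5. Beside P2 and CD31+ cells the study names an E14.5 population of CD324+ (epithelial) cells, and not CD54+CD31-, the phenotype that the labels give. Each of the 4 groups had 3 libraries, made from sorted bulk populations rather than single cells. The study describes the E14.5 sorts, and gives no separate account of the E18.5 sort in its RNA-seq methods.

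Notch receptors are membrane proteins that are cut after binding a Delta-like or Jagged ligand on a neighboring cell. The freed intracellular part enters the nucleus, joins the DNA-binding protein RBPJ and Mastermind coactivators, and turns on genes of the Hes and Hey families of transcriptional repressors. Fringe enzymes add a sugar to the receptor and change which ligands it answers to. In the FL the pathway is known for its roles in the vascular endothelium and in the formation of bile ducts from hepatoblasts, where Jagged1 and Notch2 are the best-known pair.

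In the GRCm38 assembly *Notch1* lies on chromosome 2 from 26457903 to 26516663 (minus strand), *Notch2* on chromosome 3 from 98013527 to 98150361 (plus strand), *Notch3* on chromosome 17 from 32120820 to 32166852 (minus strand), and *Notch4* on chromosome 17 from 34564268 to 34588503 (plus strand). The ligand genes *Dll4* (119325784 to 119335962, plus strand) and *Jag1* (137081456 to 137116644, minus strand) are both on chromosome 2, and *Jag2* is on chromosome 12 (112907819 to 112929776, minus strand). *Hes1* lies on chromosome 16 (30064384 to 30067796, plus strand), *Hey1* on chromosome 3 (8663359 to 8667256, minus strand), and *Mfng* on chromosome 15 (78755882 to 78773475, minus strand). Antisense transcripts share 1068 and 414 exon bases with *Notch1*, 488 with *Notch3*, and 214 with *Dll4*; their genes have no row in the count files, and whether counting used the strand is not given in the sources used here. *Notch2* shares 541 exon bases with the predicted gene *Gm42820* on the same strand, so reads there could be split or lost.

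The following 3 upstream sequences are shown because their genes had opposite patterns across the sorted populations, *Notch4* and *Dll4* being highest in CD31+ cells and *Notch2* lowest there. Each is the 250 bases before the RefSeq start of the gene on the plus strand of GRCm38.p6, written 5′ to 3′, at chr17:34564045-34564294 (*Notch4*), chr2:119325534-119325783 (*Dll4*), and chr3:98013288-98013537 (*Notch2*). Capitals mark AGGAAG, a hexamer with the GGAA core bound by ETS factors, and GGGCGG, the GC box, whether on the printed strand or, read as the reverse complement, on the other.
Notch4: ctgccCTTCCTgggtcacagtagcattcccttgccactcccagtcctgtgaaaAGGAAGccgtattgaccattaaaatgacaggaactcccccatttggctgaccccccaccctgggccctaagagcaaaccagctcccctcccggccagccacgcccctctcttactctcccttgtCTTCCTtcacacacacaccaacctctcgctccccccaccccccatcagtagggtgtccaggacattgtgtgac
Dll4: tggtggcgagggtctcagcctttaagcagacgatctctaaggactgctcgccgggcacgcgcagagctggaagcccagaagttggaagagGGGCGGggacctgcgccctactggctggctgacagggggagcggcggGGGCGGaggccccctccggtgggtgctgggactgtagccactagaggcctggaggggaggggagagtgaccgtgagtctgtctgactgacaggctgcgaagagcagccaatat
Notch2: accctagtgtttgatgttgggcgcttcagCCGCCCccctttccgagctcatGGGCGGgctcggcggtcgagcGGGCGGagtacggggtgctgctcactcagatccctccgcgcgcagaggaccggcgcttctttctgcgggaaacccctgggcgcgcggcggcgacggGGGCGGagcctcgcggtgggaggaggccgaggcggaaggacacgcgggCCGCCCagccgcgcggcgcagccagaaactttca

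The *Notch4* window held 3 matches to the ETS hexamer and 0 to the GC box. The *Dll4* window held 2 GC boxes and the *Notch2* window 5, and neither held the ETS hexamer. The window of *Notch1*, also highest in CD31+ cells, held 5 GC boxes as that of *Notch2* did. Among the windows of the 10 genes in the RefSeq table, that of *Notch4* alone held the ETS hexamer. Of 32851 mouse promoter windows of the same kind, 29.5% held the ETS hexamer on either strand and 32.7% held the GC box. TGGGAA, the core of the RBPJ motif, occurred in 21.6% of the windows and in 0 of the 7 windows of these genes that the RefSeq table holds. *Hes1*, *Hey1*, and *Mfng* were not matched. In the printed windows the hexamers do not overlap each other, and a match is a match of letters only.

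Each library held 40714017 to 64368883 counts. Between replicates the counts of every pair differed by far more than sampling noise, so no library was a copy of another. The deposited labels were checked against marker genes, summed in CPM, counts scaled to a common library size by the trimmed mean of M values (TMM). In all, 10 endothelial markers summed to 5808 to 6398 CPM in the CD31+ libraries, 6 erythroid markers to 1811 to 1866 CPM in P2 libraries, and 10 hepatoblast markers to 77503 to 88828 CPM in E14.5 CD54+CD31- libraries. The erythroid markers also summed to 207 to 368 CPM in E14.5 CD54+CD31- libraries and 203 to 291 CPM in CD31+ libraries. The part that erythroid RNA had in the low levels of genes in those libraries was not tested. A pair of libraries stood apart from their replicates. P2 replicate 2 had 253 CPM for the endothelial markers against 39.4 and 66.3 CPM in replicates 1 and 3. E18.5 replicate 1 had 5895 CPM for the hepatoblast markers against 41729 and 54429 CPM in replicates 2 and 3, and 25358 CPM for 11 lung epithelium markers against 11889 and 11965 CPM. Lung-defining genes were high in all 3 E18.5 libraries: *Nkx2-1*, the lung and thyroid transcription factor, had 289 ± 77.7 CPM (SD, n = 3) there and was at 0 in all 3 E14.5 CD54+CD31- libraries. The labelled tissue of the E18.5 libraries, FL, is thus in doubt, and in comparisons with them age and tissue makeup cannot be told apart.

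The first question was which receptors each population transcribed. *Notch2* was the main receptor transcript in P2 cells and in CD54+CD31- cells of both ages, whereas *Notch1* and *Notch4* made up most of the receptor transcripts of CD31+ cells. To compare genes with each other, levels were divided by exon length (CPM per kb). *Notch2* made up 87.1% ± 0.71 (SD, n = 3) of the summed receptor level in E14.5 CD54+CD31- cells, and *Notch1* 9.95% ± 0.39. In P2 cells the *Notch2* share was 91.0% ± 4.91, with its lowest value, 85.3%, in replicate 2. In CD31+ cells *Notch1* had 59.7% ± 2.85 and *Notch4* 34.6% ± 3.41, leaving 4.72% ± 0.49 to *Notch2*. The summed receptor level per kb was 47.6 ± 0.61 CPM per kb in CD31+ cells, 23.6 ± 1.61 in E14.5 CD54+CD31- cells, and 18.0 ± 1.83 in P2 cells. These are bulk samples, in which fewer cells of a type and less RNA per cell cannot be told apart.

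The summed ligand level varied over a wider range between populations than the summed receptor level. *Dll4*, *Jag1*, and *Jag2* together reached 45.4 ± 3.87 CPM per kb in CD31+ cells (SD, n = 3), 0.639 ± 0.027 in E14.5 CD54+CD31- cells, and 1.13 ± 0.84 in P2 cells. Without P2 replicate 2 the P2 sum was 0.643 CPM per kb, close to that of E14.5 CD54+CD31- cells. *Dll4* made up 87.1% ± 0.67 of the summed ligand level of CD31+ cells and *Jag1* 11.2% ± 0.57. At E18.5 the CD54+CD31- cells had 10.7 ± 1.47 CPM per kb, of which *Jag1* made up 58.0% ± 5.27, *Jag2* 31.4% ± 6.50, and *Dll4* 10.6% ± 1.30. These sums leave out *Dll1*, another Delta-like ligand, which had 7.48 CPM per kb in CD31+ cells, 1.47 in E14.5 CD54+CD31- cells, where it exceeded the other 3 together, 0.176 in P2 cells, and 0.485 at E18.5. With *Dll1* the sums were 52.9 ± 4.48 CPM per kb in CD31+ cells, 2.11 ± 0.35 in E14.5 CD54+CD31- cells, 1.30 ± 0.98 in P2 cells, and 11.2 ± 1.35 at E18.5. E14.5 CD54+CD31- cells then had a higher mean than P2 cells. Only P2 replicate 2, at 2.43, reached their range of 1.79 to 2.48, and replicates 1 and 3 had 0.623 and 0.849. Without replicate 2 the P2 sum with *Dll1* was 0.736 CPM per kb.

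**Figure D1:**
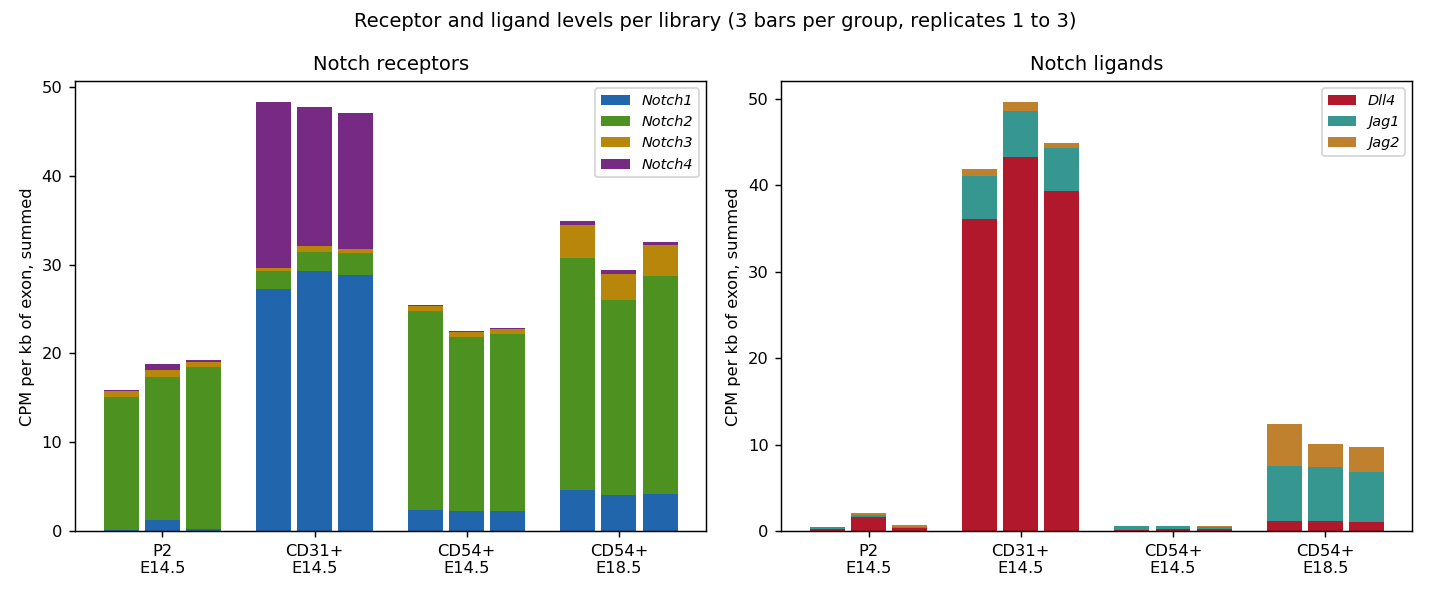
Summed level (CPM per kb of exon) of the 4 Notch receptor genes (left) and the 3 ligand genes (right, without *Dll1*) in each of the 12 libraries, 3 bars per group for replicates 1 to 3, with the colors giving each gene's part. *Notch2* fills most of every bar outside CD31+ cells, and the ligand bars of E14.5 CD54+CD31- cells, with a mean of 0.639 CPM per kb, are barely visible beside those of CD31+ cells, with a mean of 45.4.

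Levels of single genes follow in CPM for replicates 1, 2, and 3 of each group. *Notch1*, a receptor with a central role in arterial endothelium and in T cell specification, had 387, 416, and 410.4 CPM in CD31+ cells. In E14.5 CD54+CD31- cells it had 34.7, 33.2, and 32.2 CPM, and 2.99, 18.1, and 4.45 CPM in P2 cells. None of the 3 groups overlapped, and the P2 replicates were spread over a wider range than the CD54+CD31- replicates, with replicate 2 the highest. *Notch4*, a receptor known for its restriction to endothelium, had 149.6, 126, and 123 CPM in CD31+ cells. It had 1.63, 5.85, and 1.81 CPM in P2 cells and 1.41, 1.54, and 1.06 CPM in E14.5 CD54+CD31- cells. Outside CD31+ cells *Notch4* was thus at most 5.85 CPM at E14.5, and again P2 replicate 2 was the highest.

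*Notch2*, the receptor linked to bile duct formation, had the reverse order. It had 241, 209.9, and 215 CPM in E14.5 CD54+CD31- cells and 161, 173, and 195 CPM in P2 cells, but 22.3, 23.8, and 26.6 CPM in CD31+ cells. The 3 groups did not overlap, although the gap between P2 and CD54+CD31- cells was small beside that to CD31+ cells. *Notch3*, a receptor best known in vascular smooth muscle and pericytes, was low in all 9 E14.5 libraries. It had 4.80, 6.24, and 5.12 CPM in P2 cells, 4.21, 4.53, and 4.14 CPM in CD54+CD31- cells, and 3.11, 4.92, and 3.55 CPM in CD31+ cells. The CD31+ range overlapped both others for *Notch3*, so these neighbors in the order were not separated.

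Among the ligands, *Dll4*, the main Delta-like ligand of sprouting and arterial endothelium, had 139, 167, and 152 CPM in CD31+ cells. It had 1.26, 6.22, and 1.42 CPM in P2 cells and 0.764, 0.913, and 0.913 CPM in E14.5 CD54+CD31- cells. *Jag1*, the Jagged ligand mutated in Alagille syndrome, had 28.9, 31.2, and 28.7 CPM in CD31+ cells, 2.40, 1.98, and 1.75 CPM in E14.5 CD54+CD31- cells, and 0.735, 1.81, and 1.00 CPM in P2 cells. The lower pair of groups overlapped for *Jag1* but not for *Dll4*. *Jag2*, the other Jagged ligand, had 5.26, 6.61, and 4.42 CPM in CD31+ cells, 0.574, 1.14, and 1.44 CPM in P2 cells, and 0.396, 0.252, and 0.691 CPM in E14.5 CD54+CD31- cells. Its P2 and CD54+CD31- values overlapped, and both lay below the CD31+ values.

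The 2 target genes behaved differently from each other. *Hes1*, a basic helix-loop-helix repressor induced by Notch in many tissues, had 26.9, 30.8, and 25.3 CPM in E14.5 CD54+CD31- cells and 15.6, 27.8, and 27.2 CPM in CD31+ cells. It had 0.850, 1.87, and 0.905 CPM in P2 cells, where it was below every other library. *Hey1*, a related repressor of the cardiovascular system, had 4.87, 6.11, and 5.10 CPM in CD31+ cells. *Hey1* was close to the detection limit elsewhere at E14.5, with 8, 30, and 15 counts in P2 libraries and 3, 8, and 11 counts in CD54+CD31- libraries. *Mfng* had 17.9, 25.3, and 18.8 CPM in CD31+ cells, 5.53, 6.33, and 4.87 CPM in P2 cells, and 0.679, 0.818, and 0.666 CPM in E14.5 CD54+CD31- cells. The *Mfng* values of P2 cells lay between those of the other populations, and replicate 2 was 1.22 times the mean of replicates 1 and 3.

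**Figure D2:**
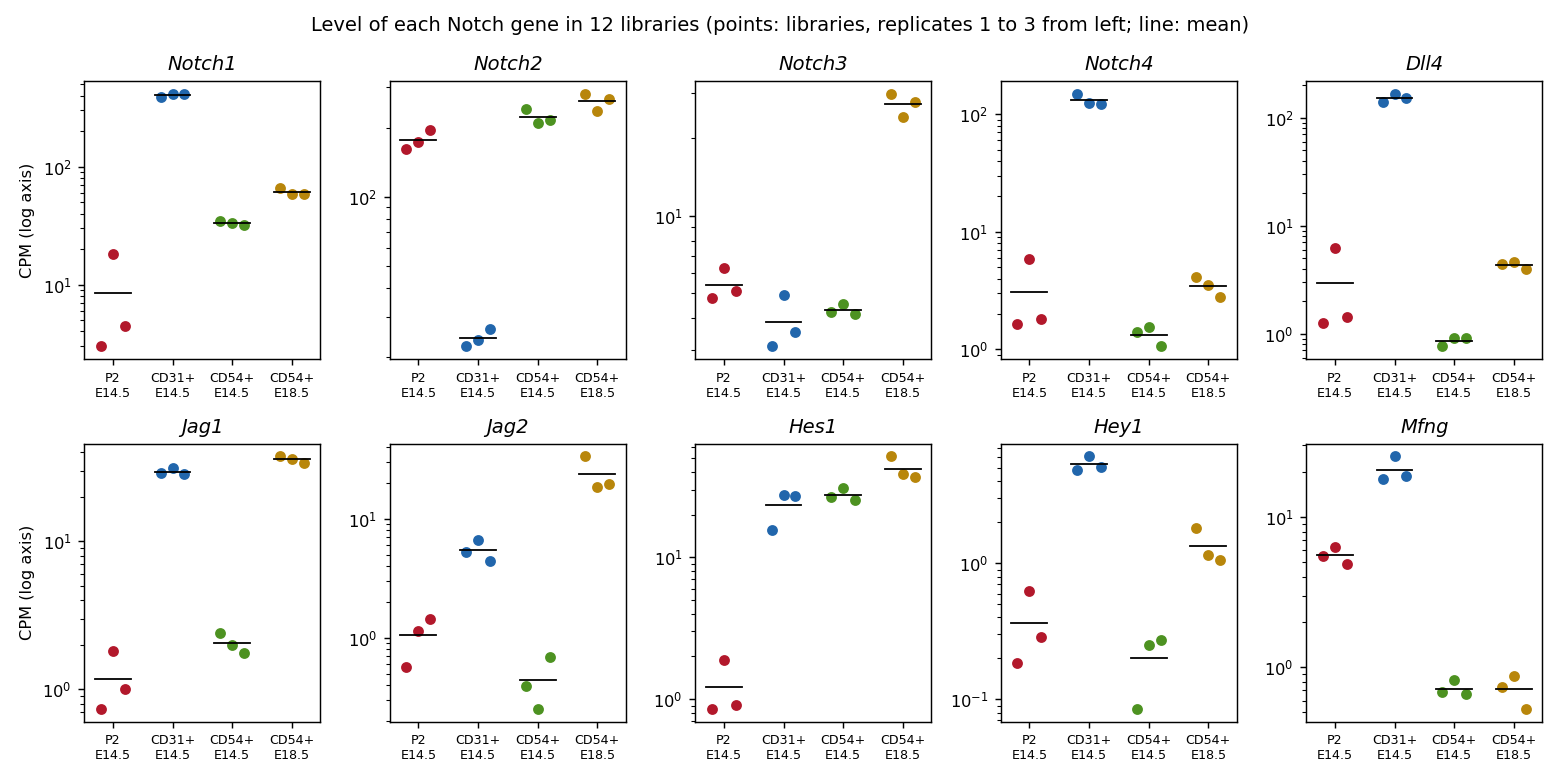
Level of each of the 10 genes (CPM, log axis, with a separate range for each panel) in P2, CD31+, and CD54+CD31- cells at E14.5 and in CD54+CD31- cells at E18.5, with points for replicates 1 to 3 from the left and a line at the mean. The CD31+ points are far above the other E14.5 points for *Notch1*, *Notch4*, *Dll4*, and *Jag1*, and the P2 points of *Hes1*, at 0.850 to 1.87 CPM, lie below all others.

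Comparison of CD31+ with E14.5 CD54+CD31- cells asked how endothelial and hepatic cells of the E14.5 FL differ. Of the 10 genes, 7 were higher in CD31+ cells and 1 was lower by the quasi-likelihood test of edgeR, where a gene was called at a Benjamini-Hochberg adjusted p below 0.05 over 15461 genes. Across all genes tested 65.6% passed the same threshold, 31.7% higher and 34.0% lower in CD31+ cells, so a call alone is common in this comparison. The median log2 fold change was 3.72 over the 10 genes and -0.03 over all genes. *Dll4* was 175-fold higher in CD31+ cells (log2 fold change 7.45 ± 0.60 SE, adjusted p = 1.71e-06) and *Notch4* 99.2-fold higher (6.63 ± 0.48, 7.30e-07). *Mfng* (4.83 ± 0.21, 1.58e-08), *Hey1* (4.69 ± 0.48, 1.11e-05), *Jag1* (3.85 ± 0.27, 6.02e-07), *Notch1* (3.59 ± 0.54, 0.000184), and *Jag2* (3.56 ± 0.43, 3.51e-05) were also higher. *Notch2* was 9.21-fold lower in CD31+ cells (log2 fold change -3.20 ± 0.12, adjusted p = 4.16e-09). *Hes1* (-0.24 ± 0.27, 0.448) and *Notch3* (-0.16 ± 0.21, 0.504) did not pass the test. With the scaling factors implied by the authors' normalized values in place of TMM, higher genes made up 53.4% of all called genes in place of 48.3%, and the median over all genes moved by 0.11. The values above come from a fit that did not pair same-numbered libraries. Each of the 10 genes kept its direction and its side of the threshold in this comparison under every alternative in which it was tested, including the replicate number as a block.

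P2 cells were compared with CD31+ cells to set the Kit+ progenitors against endothelium. Of the 10 genes, 8 were lower in P2 cells, 1 was higher, and 1 did not pass the test. Over all 15461 genes tested 73.7% passed, 34.3% higher and 39.4% lower in P2 cells. The median log2 fold change was -4.08 over the 10 genes and -0.13 over all genes. *Dll4* was 51.6-fold lower in P2 cells (log2 fold change -5.69 ± 0.53 SE, adjusted p = 3.90e-06, edgeR's quasi-likelihood test), *Notch1* 47.8-fold lower (-5.58 ± 0.60, 1.10e-05), and *Notch4* 43.1-fold lower (-5.43 ± 0.44, 1.41e-06). *Jag1* (-4.65 ± 0.28, 2.27e-07), *Hes1* (-4.29 ± 0.33, 9.50e-07), *Hey1* (-3.87 ± 0.44, 1.79e-05), *Jag2* (-2.37 ± 0.39, 0.000262), and *Mfng* (-1.90 ± 0.17, 3.17e-06) were lower by less. Without P2 replicate 2 the differences were larger for *Dll4* (-6.82), *Notch1* (-6.76), and *Notch4* (-6.27). *Notch2* was 7.23-fold higher in P2 cells (2.85 ± 0.11, 3.43e-08). *Notch3* had a log2 fold change of 0.47 ± 0.20 (adjusted p = 0.0576), and passed the test without CD31+ replicate 2 (0.75, 0.00701), without P2 replicate 1 (0.62, 0.0363), with the replicate number as a block (0.48, 0.0293), or with all 12 libraries in 1 fit (0.48, 0.0324). The authors' factors gave 33.9% of called genes as higher in place of 46.6% and moved the median by -0.37.

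**Figure D3:**
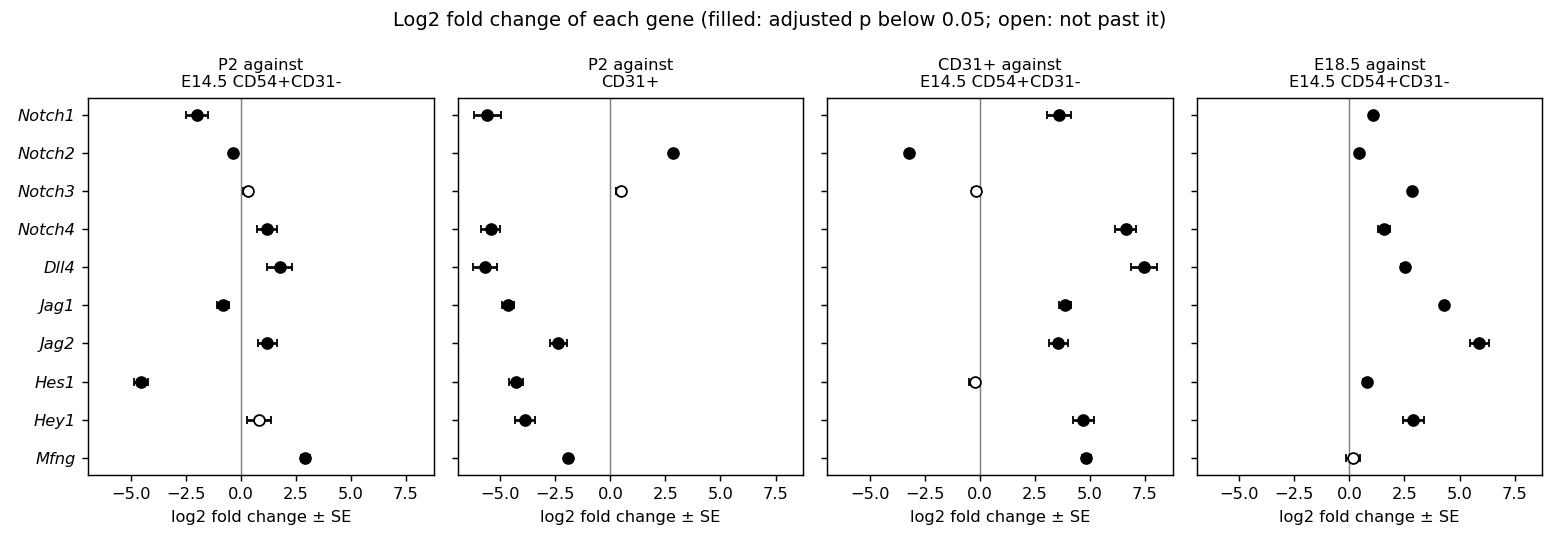
Log2 fold change with its SE for the 10 genes in the 4 comparisons, each with 3 libraries per group, where filled points had an adjusted p below 0.05 and open points did not. The points of the P2 against CD31+ panel lie left of 0 except *Notch2* at 2.85 and *Notch3* at 0.47, and those of the E18.5 panel lie at or right of 0, from 0.18 for *Mfng* to 5.90 for *Jag2*.

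In P2 replicate 2, several of the genes that were highest in CD31+ cells moved with the endothelial markers. The marker sum of replicate 2 was 4.78 times the mean of replicates 1 and 3, and all 10 endothelial markers were at 1 CPM or more. *Notch1* was 4.87 times that mean, *Dll4* 4.63 times, and *Notch4* 3.40 times. *Hey1* was 2.64 times the mean, *Hes1* 2.13 times, and *Jag1* 2.09 times. *Notch3* (1.26 times), *Mfng* (1.22 times), *Jag2* (1.13 times), and *Notch2* (0.973 times) differed less from the other replicates. Expressed against the CD31+ mean, *Notch1* stood at 0.738%, 4.47%, and 1.10% in P2 replicates 1, 2, and 3, and *Dll4* at 0.828%, 4.08%, and 0.935%. The endothelial marker sum stood at 0.645%, 4.14%, and 1.08%, a similar set of values. *Mfng* stood at 26.8%, 30.6%, and 23.6%, far above the marker sum in each library. The part that endothelial RNA had in the P2 levels was not tested.

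**Figure D4:**
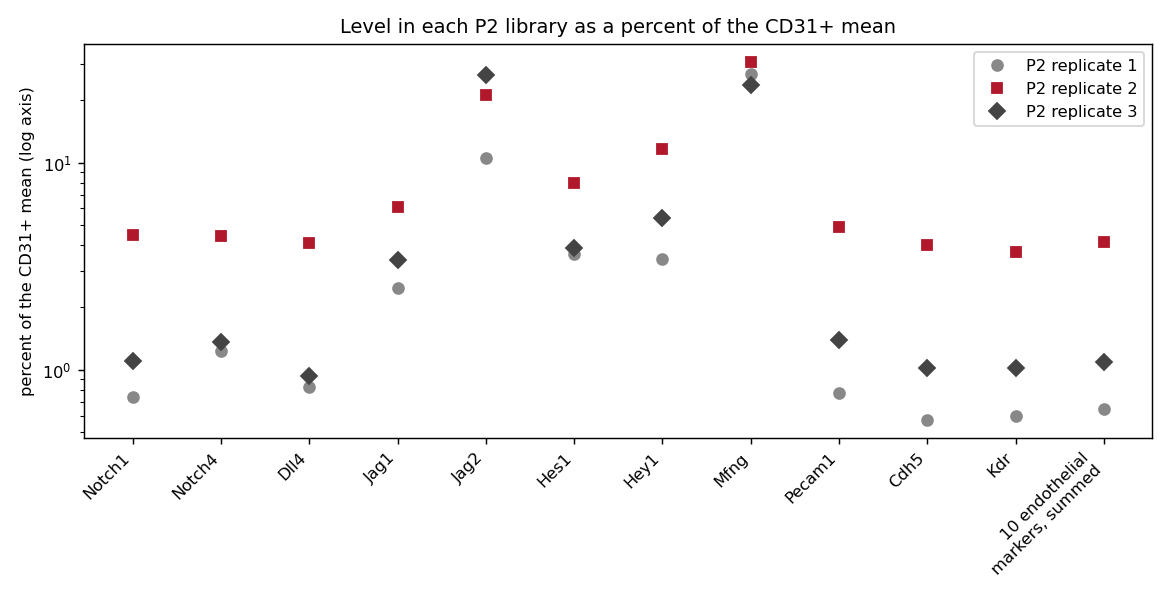
Level in each P2 library as a percent of the CD31+ mean (log axis) for 8 of the 10 genes, 3 endothelial markers, and the sum of 10 endothelial markers, with 1 symbol per P2 replicate. Replicate 2 stands above the others for *Notch1*, *Notch4*, and *Dll4* as it does for *Pecam1*, *Cdh5*, and *Kdr*, whereas the 3 *Mfng* points lie between 23.6% and 30.6%.

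Compared with E14.5 CD54+CD31- cells, P2 cells had higher levels of 4 of the 10 genes and lower levels of 4, and 2 did not pass the test. With only the 6 libraries compared in the fit, 5 were called, and *Notch4* (1.16, adjusted p = 0.0620), *Jag1* (-0.84, 0.0671), and *Jag2* (1.18, 0.0557) were not, by the same test. Over all genes tested 70.0% passed, 33.8% higher and 36.1% lower, and the medians were 0.57 over the 10 genes and -0.01 over all genes. *Hes1* was 23.1-fold lower in P2 cells (log2 fold change -4.53 ± 0.33 SE, adjusted p = 6.25e-07, edgeR's quasi-likelihood test) and *Notch1* 3.97-fold lower (-1.99 ± 0.52, 0.00577). *Jag1* (-0.80 ± 0.28, 0.0261) and *Notch2* (-0.35 ± 0.11, 0.0130) were lower by less. *Mfng* was 7.64-fold higher in P2 cells (2.93 ± 0.20, 4.68e-07). It is on a list of genes that the study itself chose from these libraries as higher in P2 cells, so that direction is not independent evidence. *Dll4* (1.76 ± 0.58, 0.0201), *Notch4* (1.20 ± 0.46, 0.0375), and *Jag2* (1.20 ± 0.43, 0.0288) were higher at low levels in both populations. *Hey1* (0.83 ± 0.52, 0.183) and *Notch3* (0.31 ± 0.21, 0.204) did not pass the test. The authors' factors gave 38.2% of called genes as higher in place of 48.3% and moved the median by -0.26.

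Several of these calls were lost when a single library was left out, in some cases with little change in the log2 fold change. Without P2 replicate 2, *Notch1* was lower by more in P2 cells (-3.17, adjusted p = 1.02e-08, edgeR's quasi-likelihood test), *Dll4* had a log2 fold change of 0.63 (0.00782), *Jag1* moved to -1.23 (0.000323), and *Notch4* no longer passed (0.37, 0.112). *Mfng* (2.84) and *Hes1* (-4.98) stayed past the threshold there. Without E14.5 CD54+CD31- replicate 1, *Notch1*, *Hes1*, and *Mfng* alone passed, and *Notch2* (-0.26, 0.0678), *Notch4* (1.27, 0.0709), *Dll4* (1.70, 0.0576), *Jag1* (-0.65, 0.0954), and *Jag2* (1.13, 0.0789) did not. *Notch4* (1.30, 0.0612) and *Jag2* (0.92, 0.101) also missed the threshold without replicate 2 of these cells, and *Notch4* (1.05, 0.117) and *Dll4* (1.81, 0.0513) without replicate 3. Without P2 replicate 1 *Notch2* (-0.29, 0.0521) and *Jag1* (-0.57, 0.0690) missed it, as did *Jag1* (-0.68, 0.0884) and *Jag2* (0.91, 0.109) without P2 replicate 3. *Hes1*, *Notch1*, and *Mfng* were thus the 3 genes that passed with any of the 6 libraries left out.

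The libraries labelled E18.5 CD54+CD31- were compared with those of E14.5, the same surface phenotype at an earlier age, with the doubt about tissue given above. Of the 10 genes, 9 were higher at E18.5, 0 were lower, and *Mfng* did not pass the test. With all 12 libraries in 1 fit 6 were called, and *Notch1* (0.88, adjusted p = 0.124), *Notch2* (0.23, 0.0795), and *Hes1* (0.61, 0.0695) were not, by the same test of edgeR. In this comparison 69.4% of 15863 genes passed, 35.9% higher and 33.5% lower, and the medians were 2.04 over the 10 genes and 0.03 over all genes. Of the 10 genes, the Jagged ligands had the largest differences. *Jag2* had 33.5, 18.5, and 19.6 CPM at E18.5, 59.6-fold above E14.5 (log2 fold change 5.90 ± 0.43 SE, adjusted p = 5.59e-05, edgeR's quasi-likelihood test). *Jag1* had 37.5, 36.2, and 34.1 CPM, 19.9-fold above E14.5 (4.32 ± 0.16, 1.38e-05), values that lay above those of CD31+ cells too, a difference that was not tested. *Dll4* was 5.73-fold higher at 4.46, 4.62, and 3.99 CPM (2.52 ± 0.20, 6.56e-05), far below its level in CD31+ cells.

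Among the receptors, *Notch3* was 7.20-fold higher at 29.8, 24.1, and 27.7 CPM (log2 fold change 2.85 ± 0.13 SE, adjusted p = 1.69e-05, edgeR's quasi-likelihood test). Its share of the summed receptor level per kb was 10.4% ± 0.24 (SD) at E18.5 and 2.26% ± 0.22 at E14.5. *Notch1* was 2.09-fold higher at 66.3, 58.5, and 59.1 CPM (1.06 ± 0.10, 0.000134), and *Notch4* 2.96-fold higher at 4.10, 3.56, and 2.80 CPM (1.57 ± 0.26, 0.00171). *Notch2* was at 281, 236, and 265 CPM, overlapping the E14.5 values (0.42 ± 0.13, 0.0226). That call was lost without E14.5 replicate 2 (0.36, 0.0881), E14.5 replicate 3 (0.36, 0.0722), or E18.5 replicate 3 (0.40, 0.0618). *Notch2* was again the main receptor transcript per length, at 74.9% ± 0.66. Of the target genes, *Hes1* had 51.6, 38.6, and 36.7 CPM (0.80 ± 0.17, 0.00463) and *Hey1* 1.83, 1.15, and 1.05 CPM (2.90 ± 0.49, 0.00177). *Mfng* had 0.743, 0.880, and 0.526 CPM (0.18 ± 0.32, 0.639). The authors' factors gave 60.9% of called genes as higher in place of 51.7% and moved the median by 0.23.

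Markers of several other cell types moved with the E18.5 libraries, and their values are given because Jagged and *Notch3* transcripts are not restricted to hepatic cells. The 7 cholangiocyte markers summed to 921 to 1351 CPM at E18.5 and 42.3 to 55.6 CPM at E14.5, and the 7 stellate and mesenchymal markers to 3929 to 4357 and 117 to 235 CPM. Whether the cholangiocyte markers came from bile duct cells or from other epithelial cells in these libraries was not tested. The 6 pericyte and smooth muscle markers summed to 79.1 to 96.9 CPM at E18.5 and 9.14 to 10.5 CPM at E14.5. The 11 lung epithelium markers summed to 11889 to 25358 CPM at E18.5, all 11 at 1 CPM or more in each library, and to 155 to 169 CPM at E14.5, where 1 to 3 of them were at 0 and *Abca3* alone had 157 ± 6.58 CPM (SD, n = 3). The 4 airway markers summed to 90.9 to 255 CPM and 10.4 to 11.1 CPM, the 10 endothelial markers to 141 to 207 and 30.7 to 52.3 CPM, and the 6 arterial markers to 45.7 to 67.7 and 2.23 to 4.06 CPM. *Efnb2* made up most of the arterial sum at E18.5 (49.0 ± 11.4 CPM), and 2 to 5 of the 6 reached 1 CPM. *Foxj1* made up most of the airway sum at E14.5 (10.7 ± 0.32 CPM) and had 8.23 ± 1.30 CPM at E18.5. The other airway markers, *Scgb1a1*, *Scgb3a2*, and *Cyp2f2*, were higher at E18.5. The 10 hepatoblast markers summed to 5895 to 54429 CPM at E18.5 and 77503 to 88828 CPM at E14.5. The means of *Alb*, *Afp*, *Ttr*, *Apoa1*, *Apob*, *Hnf4a*, and *Dlk1* were lower at E18.5. *Cdh1* was higher there (771 ± 151 against 462 ± 26.2 CPM), and *Fgb* had 3218 ± 2618 against 3338 ± 210 CPM. *Trf* was near 0 at both ages (0.146 and 0.063 CPM). The part of these cell types in the higher levels of *Jag1*, *Jag2*, *Notch3*, and the other genes was not tested. All of the 10 genes except *Dll4* and *Mfng* were highest in E18.5 replicate 1, the library with the fewest hepatoblast and the most lung and airway counts. That library also had the highest cholangiocyte, stellate and mesenchymal, pericyte and smooth muscle, endothelial, and arterial sums at E18.5. Its erythroid, macrophage, and sinusoidal endothelial sums were the lowest at E18.5. Without that library *Jag2* (5.54), *Jag1* (4.27), *Notch3* (2.76), *Hey1* (2.60), *Dll4* (2.48), and *Hes1* (0.61) were still called higher, with adjusted p from 8.09e-08 for *Jag1* to 0.00153 for *Hey1* (edgeR's quasi-likelihood test).

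A further 48 genes of the pathway, listed by role, were examined in the same fits. In CD31+ against E14.5 CD54+CD31- cells 38 were tested, of which 19 were higher, 8 lower, and 11 not past the test. In P2 against CD31+ cells the numbers were 7, 18, and 13, in P2 against E14.5 CD54+CD31- cells 14, 14, and 10, and at E18.5, where 41 were tested, 22, 8, and 11. Over all genes 65.6%, 73.7%, 70.0%, and 69.4% were called in either direction in these comparisons, close to the shares in the list. By direction, 31.7% of all genes were higher and 34.0% lower in CD31+ against E14.5 CD54+CD31- cells. In P2 cells the shares were 34.3% and 39.4% against CD31+ cells and 33.8% and 36.1% against E14.5 CD54+CD31- cells. At E18.5 they were 35.9% and 33.5%. Except in P2 against E14.5 CD54+CD31- cells, the calls in the list thus leaned further to 1 side than those of all genes. The list, like the 10 genes, was chosen with earlier results of these data known, so the lean is not independent evidence. The median log2 fold changes of the list were 0.31, -0.42, -0.07, and 0.42, closer to 0 than those of the 10 genes in each comparison. Among the nuclear complex and its co-repressors, all 9 were tested, and 8 were higher and 1 lower at E18.5, where 35.9% of all genes were higher and 33.5% lower. *Rbpj* itself was 1.05 higher on the log2 scale at E18.5 (SE 0.10, adjusted p = 0.000119, edgeR's quasi-likelihood test), with 33.7 to 34.9 CPM against 17.1 to 20.4 CPM. Between P2 and CD31+ cells *Rbpj* had a log2 fold change of -0.03 ± 0.10.

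The coactivator *Maml2* followed *Notch1* and *Notch4* in being highest in CD31+ cells, with 599, 386, and 398 CPM. It had 6.82, 8.09, and 8.86 CPM in E14.5 CD54+CD31- cells and 20.1, 34.2, and 16.0 CPM in P2 cells, and 140.4, 92.4, and 94.5 CPM at E18.5. Its log2 fold change was 5.86 ± 0.32 for CD31+ against E14.5 CD54+CD31- cells, -4.31 ± 0.30 for P2 against CD31+ cells, and 3.97 ± 0.22 at E18.5 (adjusted p = 9.94e-08, 5.22e-07, and 2.43e-05, edgeR's quasi-likelihood test). *Maml3* was lower in P2 than in CD31+ cells (-2.45 ± 0.20). Of the other ligands, *Dll1* was highest in CD31+ cells at 32.7, 35.7, and 26.3 CPM, against 0.367, 1.44, and 0.424 CPM in P2 cells (log2 fold change -5.41 ± 0.43) and 7.67, 6.04, and 4.89 CPM in E14.5 CD54+CD31- cells. Against the latter it was higher in CD31+ cells (2.34 ± 0.36) and lower in P2 cells (-3.07 ± 0.42). *Dlk1*, a Delta-like protein used as a hepatoblast marker, was lower in P2 (-6.43 ± 0.09) and CD31+ cells (-6.33 ± 0.09) than in E14.5 CD54+CD31- cells. *Dlk2*, its close relative, had 0, 0, and 1 counts at E14.5 and 988, 672, and 616 counts at E18.5 in CD54+CD31- cells.

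Of the 5 glycosyltransferases, 4 were higher in P2 than in E14.5 CD54+CD31- cells and 0 lower, beside 33.8% and 36.1% of all genes. Compared with CD31+ cells, 2 of them were higher in P2 cells, 1 lower, and 2 not past the test. *Lfng*, the Lunatic fringe paralog of *Mfng*, had 30.3, 28.3, and 22.0 CPM in P2 cells and 35.8, 34.8, and 19.8 CPM in CD31+ cells, against 5.91, 8.50, and 6.54 CPM in E14.5 CD54+CD31- cells. Its log2 fold change was 1.93 ± 0.24 for P2 against these cells and 2.10 ± 0.24 for CD31+ against them (adjusted p = 3.72e-05 and 2.45e-05, edgeR's quasi-likelihood test). P2 and CD31+ cells thus overlapped for *Lfng* but not for *Mfng*. *Rfng*, the Radical fringe paralog, was higher in P2 cells than in both others, by 1.44 ± 0.16 against CD54+CD31- cells and 1.71 ± 0.16 against CD31+ cells. *Eogt*, which attaches a different sugar to Notch repeats, was lower in P2 than in CD31+ cells (-2.69 ± 0.11) and higher in CD31+ than in E14.5 CD54+CD31- cells (2.76 ± 0.11).

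Among the ligand ubiquitin ligases, all 4 had lower levels in P2 than in CD31+ cells, including *Neurl1a* (-4.08 ± 0.39) and *Neurl1b* (-2.87 ± 0.82), where 39.4% of all genes were lower. Compared with E14.5 CD54+CD31- cells 1 was lower and 3 were not past the test. Of the 6 negative regulators of the receptor that were tested, P2 cells had lower levels than CD31+ cells of 5 and higher levels of 1, beside 39.4% lower and 34.3% higher among all genes. *Numb*, an endocytic inhibitor of Notch, had 35.4, 42.7, and 34.8 CPM in P2 cells against 232, 188, and 184 CPM in CD31+ cells (-2.43 ± 0.12, adjusted p = 8.50e-08, quasi-likelihood test of edgeR). *Dtx4*, a Deltex ubiquitin ligase, was lower in P2 (-5.77 ± 0.40) and in CD31+ cells (-2.84 ± 0.33) than in E14.5 CD54+CD31- cells, whereas *Dtx3* was higher in P2 cells (2.15 ± 0.14). *Neurl1a* was lower in P2 than in E14.5 CD54+CD31- cells too (-2.24 ± 0.39), and *Dtx4* lower in P2 than in CD31+ cells (-2.93 ± 0.37). The γ-secretase subunits *Aph1b* (-4.76 ± 0.70) and *Aph1c* (-2.77 ± 0.49) were lower in P2 than in E14.5 CD54+CD31- cells, and *Aph1b* was lower than in CD31+ cells (-2.80 ± 0.69). These close copies could share reads, so their separate values are uncertain.

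Few of the other Hes and Hey genes passed the filter on low counts: of 7 listed, 2 were tested at E14.5 and 3 in the E18.5 comparison. *Heyl* was lower in P2 than in E14.5 CD54+CD31- cells (-2.03 ± 0.37, adjusted p = 0.000654, edgeR's quasi-likelihood test) at 0.230 to 0.312 against 0.849 to 1.26 CPM, and higher at E18.5, at 6.75, 4.62, and 5.23 CPM (2.52 ± 0.25, 0.000174). *Hey2* had 0, 1, and 6 counts at E14.5 and 162, 81, and 96 counts at E18.5 in CD54+CD31- cells. *Neurl1b* (3.86 ± 0.30), *Dtx1* (2.44 ± 0.59), and *Aph1c* (2.17 ± 0.28) were also called higher at E18.5 by over 2 on the log2 scale.

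**Figure D5:**
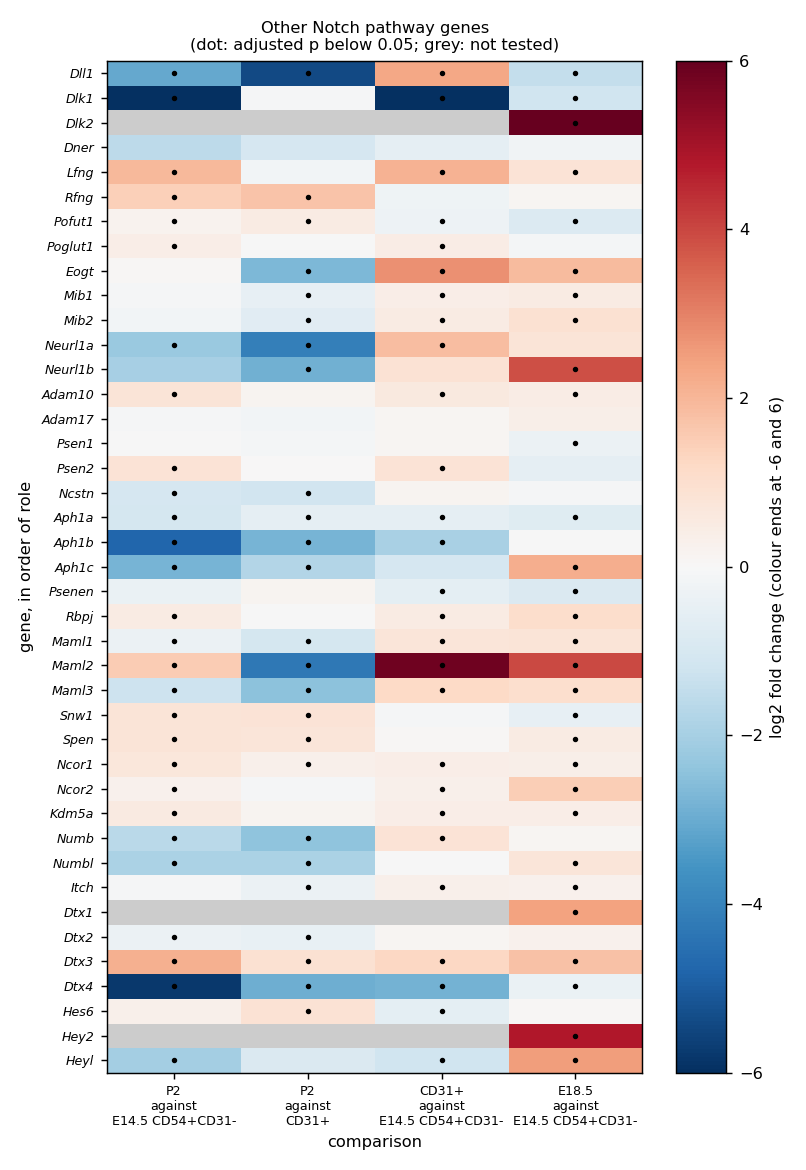
Log2 fold change (color, ending at -6 and 6) of the 41 other pathway genes that were tested in at least 1 comparison, in order of role, where dots mark an adjusted p below 0.05 and grey marks genes not tested. The column of E18.5 against E14.5 holds 22 genes called higher and 8 called lower, and the column of P2 against CD31+ cells 7 and 18. Over all genes tested 35.9% were called higher and 33.5% lower at E18.5, and 34.3% and 39.4% in P2 against CD31+ cells.

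The genes whose levels followed each of the 10 most closely were found by the Pearson correlation of log2(CPM + 1) over the 12 libraries, among 14114 genes with at least 1 CPM in 3 libraries. The 12 points are 4 groups of 3, so a high r here mainly records a shared order of the groups. For *Dll4* they were *Adcy4* (r = 0.999), *Vash1* (0.998), and *Aplnr* (0.998), and for *Notch4* they were *Bcl6b* (0.998), *She* (0.997), and *Sox17* (0.997). *Notch1* was closest to *Sema4c* (0.996), *Nr2f2* (0.995), and *Palld* (0.994), and *Hey1* to *Clec1a* (0.994), *Hoxb4* (0.993), and *Tmem88* (0.993). *Jag1* was closest to *Zfp608* (0.994), *Osmr* (0.994), and *Scarf2* (0.993), *Jag2* to *Fbxl20* (0.991), *Fam110b* (0.990), and *Tmem8b* (0.990), and *Notch3* to *Gm38392* (0.992), *Osr1* (0.991), and *D230025D16Rik* (0.990). *Notch2* was closest to *Ccdc114* (0.993), *Fzd7* (0.989), and *Usp33* (0.983). *Hes1* was closest to *Kdelc2* (0.992), *Stx7* (0.990), and *Arhgap35* (0.989), and *Mfng* to *P2ry1* (0.992), *Slk* (0.992), and *Dennd4b* (0.991).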

How the data were processed

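RNA of sorted cells labelled as E14.5 and E18.5 FL was measured by strand-specific, rRNA-depleted RNA-seq, 3 libraries in each of 4 groups; the series' design text calls them biological replicates. Per the submitters' processing notes and the study's methods, the authors trimmed reads (cutadapt 1.11), aligned them to GRCm38 (STAR 2.5.0a), and deposited gene counts (featureCounts 1.4.6-p3). The deposited normalized column, a score made by the authors by dividing counts by DESeq2 factors and rounding, served here only to recover those factors.

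Counts were tested with edgeR 4.0.16 in R 4.3.3: TMM scaling, filterByExpr, quasi-likelihood test, Benjamini-Hochberg adjustment over all genes, and calls at an adjusted p below 0.05. The 9 E14.5 libraries shared 1 fit and the 6 CD54+CD31- libraries had their own. The SE of a log2 fold change was derived as its absolute value divided by the square root of the F statistic. It is thus an approximation and not an SE given by the model. The fit was tested on simulated data with few changed genes and the same spread for every gene, whereas most genes were called here. That test cannot show how the fit behaves on the real data. CPM used TMM factors over 12 libraries, and exon lengths came from GENCODE annotation. Libraries held 40714017 to 64368883 counts, so low genes carry counting error as well. The 10 genes, the 48 further genes, and the marker lists were chosen with earlier results of these data known. Of the 48, those called with an absolute log2 fold change above 2 and no overlap between groups were named, with *Rbpj* and *Rfng* added after their values were seen; for each of the 10 genes the 3 closest genes by correlation were named.

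Alternatives were DESeq2 1.42.0, its size factors or the authors' factors in edgeR, no filter or at least 10 counts in every library, removal of genes over 1% of counts, other sets of libraries in the fit, the replicate number as a block, and each library left out. Same-numbered CD31+ and E14.5 CD54+CD31- libraries deviated together (correlations 0.122 to 0.334), which was taken as pairing. The labels give no reason for it. The values printed for that comparison still come from the unpaired fit, so their SE and adjusted p leave the pairing out. The block, run as an alternative, changed none of its calls among the 10 genes. For the other comparisons the lowest correlation was -0.020, 0.015, and 0.017, so they were treated as sharing only a number; the study states 3 independent litters at E14.5 but no source ties a number to a litter. The ligand sums with *Dll1* or without P2 replicate 2 were added after seeing the data. Genes holding over 1% of a library's counts numbered 8 and held 19.9% to 37.2% of counts. Sequences came from RefSeq (GRCm38.p6).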

Additional observations from a re-analysis of the deposited data

How the results depend on the processing

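Over 4 comparisons, 550 of 582 single-gene values kept their direction and side of the threshold, 27 lost the call, 4 gained it, and 1 reversed: *Mfng* at E18.5, which was never called, had a log2 fold change of -0.0038 with all 12 libraries in 1 fit. Of 118 counts of genes, 116 stayed within 1.5 times. For P2 against E14.5 CD54+CD31- cells, 5 of the 10 genes were called with only the 6 libraries compared and 3 to 7 with 1 library left out. The range with 1 library left out was 9 to 10 for P2 against CD31+ cells, 8 to 8 for CD31+ against E14.5 CD54+CD31- cells, and 8 to 9 at E18.5. With all 12 libraries in 1 fit 6 of the 10 genes were called at E18.5, and *Notch1* (0.88, adjusted p = 0.124), *Notch2* (0.23, 0.0795), and *Hes1* (0.61, 0.0695) lost the call by edgeR's quasi-likelihood test; that fit shares its spread over all groups and moved the median of all genes to -0.14. *Notch4* in P2 against E14.5 CD54+CD31- cells also missed the threshold with the authors' factors (0.96, 0.108) and with DESeq2 (1.20, 0.0504), and *Jag2* with the authors' factors (0.94, 0.0774). With at least 10 counts in every library *Jag2* and *Hey1* were not tested. The cause of these changes was not tested.

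With the replicate number as a block, 10910 genes were called for P2 against E14.5 CD54+CD31- cells, 11460 for P2 against CD31+ cells, 10326 for CD31+ against E14.5 CD54+CD31- cells, and 10328 at E18.5. The block changed 1 call of the 10 genes, *Notch3* in P2 against CD31+ cells (0.48, adjusted p = 0.0293, edgeR's quasi-likelihood test). With 3 to 30 counts per library in P2 and E14.5 CD54+CD31- cells, *Hey1* was measured with little depth in that comparison.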
